A study of Mus musculus with 6 samples.

Results

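PD0325901, an inhibitor of the kinases MEK1 and MEK2, was added to mouse embryonic stem cells (mESC) that also received CHIR99021, an inhibitor of the kinase GSK3. The comparison set the array of mESC given both inhibitors against the array of mESC given CHIR99021 alone, which are 2 of the 6 arrays of the series. Every gene with a probe of its own was a member, 22180 genes in all, and its measure was the log2 intensity with both inhibitors minus the log2 intensity with CHIR99021 alone. The inhibitors are called PD and CHIR here, and a difference is always CHIR with PD minus CHIR.

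The cells were of EB3, a single mouse embryonic stem cell line, grown in the serum-free medium N2B27 with LIF and BMP4, and both mESC groups compared shared this medium. CHIR was given at 3 µM and PD at 1 µM, for 24 h, and the remaining mESC array came from untreated cells. The other 3 arrays carried epiblast-like cells (EpiLC), made from EB3 cells over 2 days in N2B27 with bFGF at 12 ng/ml plus ActivinA at 20 ng/ml and given the same treatments. PD was never given without CHIR, so its effect was measured only where GSK3 was also inhibited. Each group had 1 array, so a single group has no error and no p-value can be attached to a difference in mESC alone. How precise any value is depends on these few arrays.

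MEK1 and MEK2 phosphorylate ERK kinases, the last step of the cascade that fibroblast growth factors (FGF) switch on, and active ERK induces a small set of genes whose products damp the same cascade. In mESC the main autocrine ligand of this cascade is Fgf4, and the cascade is known for moving cells out of the naive state. Inhibition of GSK3 stabilises beta-catenin and so stands in for Wnt signalling, and the pair of inhibitors is widely used to hold mESC in a uniform naive state. The question of the comparison was what blocking MEK adds to cells in which GSK3 is already inhibited.

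The arrays had medians between 60.5 and 65.2 intensity units over all 33793 probes, and these are the array medians named below. The 2 mESC arrays compared had a Pearson r of 0.99 across genes on the log2 scale. Genes are not independent replicates, and this r describes only how alike the arrays were. The lowest intensity in the table was 16, a floor that compresses differences of dim genes. The stem cell identity of the mESC was checked on marker genes. Pou5f1, a defining factor of pluripotency, was at 1342 in untreated mESC, 1234 with CHIR and 1121 with CHIR and PD. Nanog, another such factor, was at 2118, 2179.6 and 2969 in the same order. Pou5f1 was at 1289.5 in untreated EpiLC, so it does not separate mESC from EpiLC. The other stem cell markers checked were higher in untreated mESC than in untreated EpiLC. Nanog was at 2118 and 709, Zfp42 at 2569 and 327, and Esrrb at 357 and 22.5. Tbx3 was at 574 and 43.0, Klf4 at 399 and 36.0, and Sox2 at 1514 and 599. The 12 markers of fibroblasts, the usual feeder cells, summed to 4528 intensity units with CHIR and 4910 with CHIR and PD, and 6 and then 7 of the 12 were at or above the array median. Of the 12, 9 were higher and 3 lower with PD, and Fn1, at 2290.3 and 2780.0, and Vim, at 1508 and 1196, made up most of both sums. The part of other cells in the differences below was not tested, and fewer cells of a type and less RNA per cell cannot be told apart in such bulk RNA.

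Few genes differed by a large factor once PD was added. In mESC 116 genes were at least 2-fold lower, 0.523% of the 22180 measured, and 56 were at least 2-fold higher, 0.252%. The median difference over all genes was -0.01, the quartiles were -0.16 and 0.14, and 96.1% of the genes lay within 1.5-fold. At least 4-fold lower were 17 genes, at least 4-fold higher 3 genes, and 6 and 3 genes passed 8-fold. So most of the large differences were towards lower intensity with PD. Of the 116 lower genes, 47 had an intensity under the array median on the array with PD, against 3 on the array with CHIR alone. Of the 56 higher genes, 3 were under it with PD and 12 with CHIR alone. The choice of genes by their difference sets the direction of both contrasts, so they show only how dim the genes were. The counts of 2-fold genes depend on how dim genes are treated. With the floor of 16 raised to 64 in every intensity 51 genes were lower and 22 higher, and with the floor set to 4 the counts were 262 and 163. The naming rule given with the processing picked 63 genes that differed at least 2-fold. With the floor of 64 all of them kept their direction and 44 stayed past 2-fold. Among the others, which fell under 2-fold, were Egr1, Hoxb1 and Wnt8a.

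**Figure D1:**
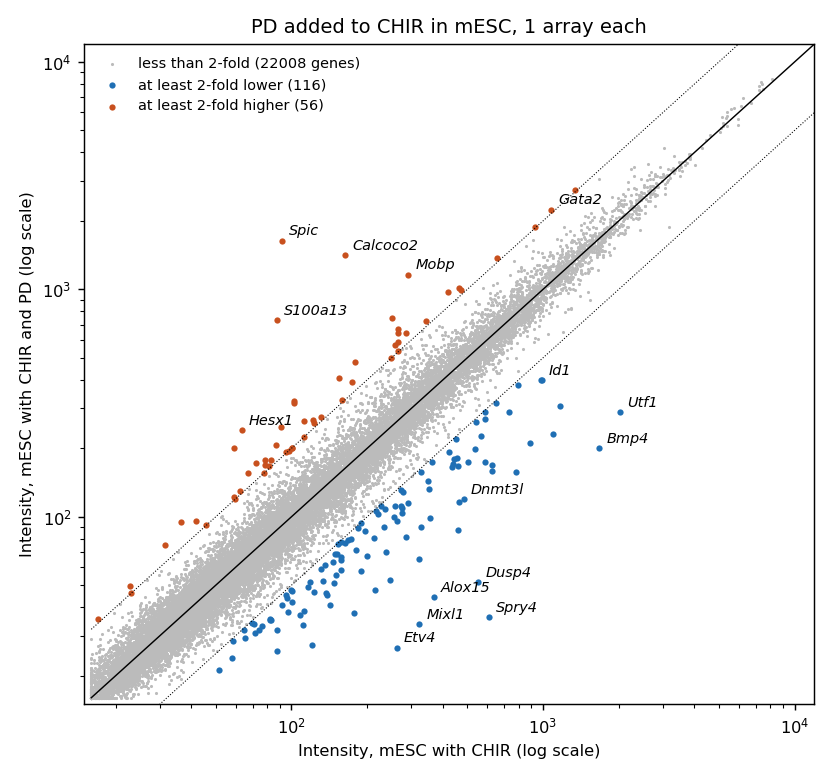
Intensity of 22180 genes in mESC with CHIR (horizontal, log scale) and in mESC with CHIR and PD (vertical, log scale), 1 array each, with one point per gene. The 116 genes at least 2-fold lower and the 56 at least 2-fold higher are coloured, and Spry4 (-4.07) and Spic (4.16) lie farthest from the diagonal.

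The only formal test open to this design pooled both cell states. It was a limma fit of cell state plus treatment over all 6 arrays, with 2 residual degrees of freedom, which takes any departure from equal effects in the 2 states as error. At an adjusted p under 0.05 (Benjamini-Hochberg over all genes) 4 genes were lower with PD, 0.018% of those tested, and 0 were higher, 0%, while 1280 genes had an unadjusted p under 0.05. The 4 genes were Spry4, Dusp4, Etv4 and Dusp6. On the log2 scale of limma's fit Spry4 fell by 3.99 (SE 0.12, adjusted p = 0.0025) and Dusp4 fell by 3.31 (SE 0.13, adjusted p = 0.00522). Etv4 fell by 3.28 (SE 0.19, limma adjusted p = 0.0205) and Dusp6 fell by 2.36 (SE 0.13, adjusted p = 0.0205). Just outside were Mixl1 at -3.78 (SE 0.27, limma adjusted p = 0.0547), Epha1 at -2.06 (adjusted p = 0.0689) and Tmem59l at -2.16 (adjusted p = 0.0806). The count of lower genes was 7 with trended and robust variance moderation, 1 with the floor of 64, and 0 without moderation of the variances, where 1231 genes had an unadjusted p under 0.05. Only for those 4 genes is a fall reported, and all other differences are values of 1 array against 1.

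The feedback inhibitors of the FGF-ERK cascade were the list with the lowest median. The Sprouty, Spred and Sef proteins bind receptors, Ras or Raf and hold the cascade down, and all 8 measured members of this list were lower with PD, 4 of them at least 2-fold. Their median difference was -1.10, against -0.01 over all genes. Spry4, a Sprouty protein, was at 610.5 in untreated mESC, 608 with CHIR and 36.2 with CHIR and PD, a difference of -4.07. In EpiLC it stood at 346, 338 and 22.3, so the 4 arrays without PD were all high and the 2 with PD close to the floor. Spred1, which blocks Raf activation through neurofibromin, was at 369.7, 463 and 116 in mESC, a difference of -1.998. Spred3, a relative that inhibits the same cascade, was at 356 with CHIR and 99.1 with PD added (-1.85). Spry2, another Sprouty protein, was at 731 and 290.3 (-1.33). The remaining members lay less than 2-fold lower: Spry1 at -0.88, the Sef gene Il17rd at -0.81, Spred2 at -0.74 and Spry3 at -0.24. In EpiLC the list had a median of -1.26 with 5 members at least 2-fold lower, beside 225 genes at least 2-fold lower there (1.01%) and 230 higher (1.04%).

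The MAP kinase phosphatases, encoded by Dusp genes, remove phosphate from ERK, JNK or p38, and this list was divided. Dusp4, a nuclear phosphatase, was at 401 in untreated mESC, 552 with CHIR and 51.5 with CHIR and PD, a difference of -3.42. On the EpiLC arrays it was at 665, 930.2 and 101, so neither array with PD overlapped the arrays without it. Dusp6, the cytoplasmic phosphatase specific for ERK, was at 175, 177 and 37.5, a difference of -2.24. That value is the mean of a pair of probes that did not agree: the brighter went from 854 to 49.3 (-4.11) and the dimmer from 36.7 to 28.6 (-0.36), so the averaged value is the smaller one. Dusp5, which also acts on nuclear ERK, was at -0.40, and Dusp7 at -0.31, while Dusp9, another phosphatase of ERK, was at 0.20. On the other side stood Dusp8 at 0.89, Dusp10 at 0.66 and Dusp16 at 0.47, all 3 known to act mainly on JNK and p38. Over the 10 members 5 were lower and 5 higher, 2 at least 2-fold lower and 0 higher, and the median was -0.05.

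**Figure D2:**
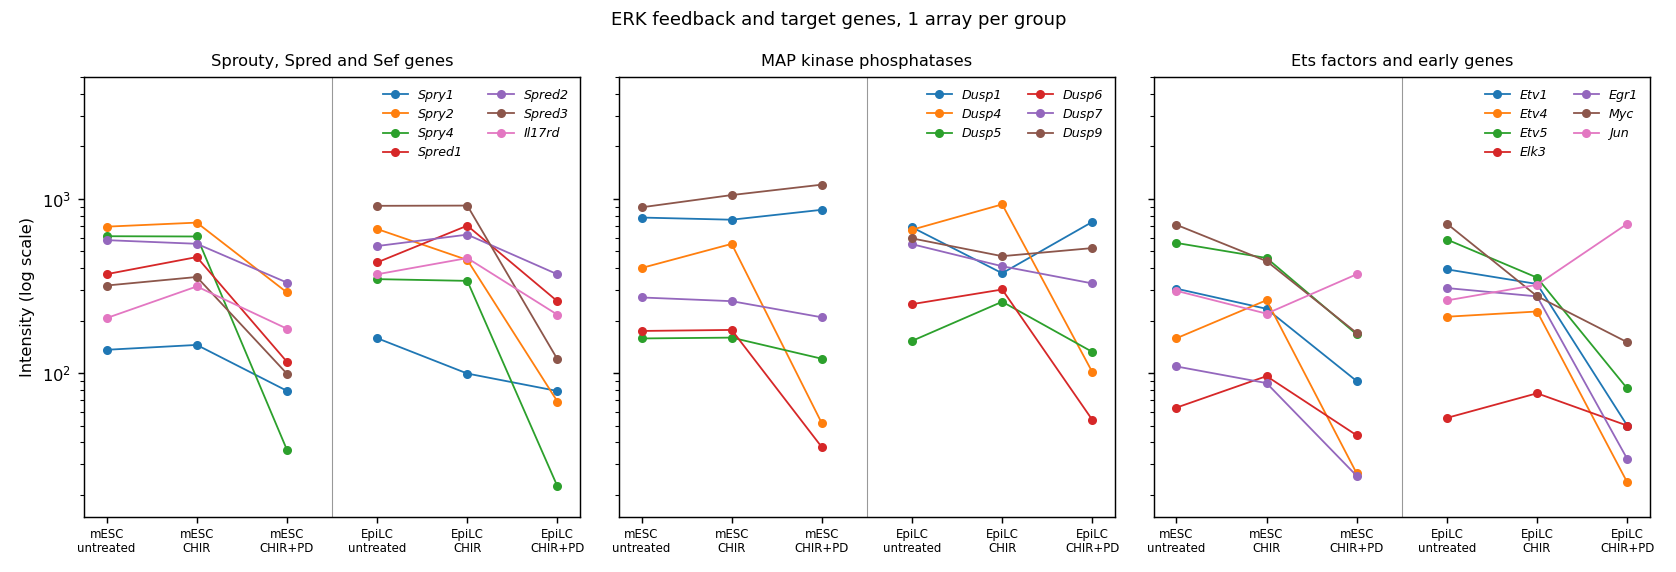
Intensity (log scale) of feedback inhibitors, phosphatases, Ets factors and early genes on the 6 arrays, one line per gene and cell state, with untreated, CHIR, and CHIR and PD along the horizontal axis. Plotted are 7 of the 8 Sprouty, Spred and Sef genes and 6 of the 10 phosphatases, and Spry4, Dusp4 and Etv4 are at their lowest on the array with PD in both states.

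The promoter of Dusp6 is shown because Dusp6 fell in the fit over both states, and it may be set against that of Spic, the gene with the highest difference, that of Utf1, at least 2-fold lower in both states, and that of Bmp4, at least 2-fold lower in mESC only. The sequences are the 250 bases before the start, from RefSeq on GRCm38.p6, 5′ to 3′ on the strand of the gene. Capitals mark GGAA or its reverse complement TTCC, the core that Ets factors bind.
Dusp6 (chr10:99262981-99263230, plus strand): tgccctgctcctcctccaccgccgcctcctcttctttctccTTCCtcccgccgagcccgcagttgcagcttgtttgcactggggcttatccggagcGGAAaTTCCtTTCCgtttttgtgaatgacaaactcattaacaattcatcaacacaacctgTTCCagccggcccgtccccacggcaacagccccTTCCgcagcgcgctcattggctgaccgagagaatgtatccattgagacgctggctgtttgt
Utf1 (chr7:139943606-139943855, plus strand): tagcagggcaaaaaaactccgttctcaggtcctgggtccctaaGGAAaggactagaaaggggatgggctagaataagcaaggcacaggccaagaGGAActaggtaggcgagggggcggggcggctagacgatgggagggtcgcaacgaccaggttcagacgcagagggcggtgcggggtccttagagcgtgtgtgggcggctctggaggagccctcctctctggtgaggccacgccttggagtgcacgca
Bmp4 (chr14:46390670-46390919, minus strand): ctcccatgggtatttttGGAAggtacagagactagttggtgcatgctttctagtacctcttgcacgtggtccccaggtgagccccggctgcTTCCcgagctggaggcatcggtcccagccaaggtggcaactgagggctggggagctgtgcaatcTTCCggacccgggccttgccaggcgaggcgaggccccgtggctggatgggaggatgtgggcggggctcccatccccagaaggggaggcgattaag
Spic (chr10:88683024-88683273, minus strand): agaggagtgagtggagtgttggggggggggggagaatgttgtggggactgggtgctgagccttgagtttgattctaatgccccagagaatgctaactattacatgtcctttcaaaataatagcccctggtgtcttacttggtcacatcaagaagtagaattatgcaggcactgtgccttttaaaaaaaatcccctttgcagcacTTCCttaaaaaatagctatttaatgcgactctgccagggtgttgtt
The Dusp6 window holds 6 such cores, the Utf1 window 2, the Bmp4 window 3 and the Spic window 1. Over all 20611 windows the median was 3, with quartiles of 2 and 4, and 93.1% held at least 1. Genes with several starts have several windows: the 116 windows of lower genes had a median of 2 cores and the 55 windows of higher genes a median of 3. Longer motifs were searched on both strands in windows that add the 50 bases after the start, for 84 of the 116 lower and 43 of the 56 higher genes. The Ets motif CCGGAAGT was in 5.62% of all such promoters and in 0 of the 84 and 0 of the 43. The AP-1 motif TGANTCA was in 8.42% of all, in 7 of the 84 (8.33%) and in 8 of the 43 (18.6%). The cyclic AMP motif TGACGTCA was in 2.65% of all, in 2 of the 84 and in 3 of the 43. The Tcf/Lef motif CTTTGAT was in 3.82% of all, in 5 of the 84 and in 3 of the 43. The E-box CACGTG, which the Bmp4 window holds, was in 9.19% of all, in 8 of the 84 (9.52%) and in 5 of the 43 (11.6%). A match describes letters in a window and is not a binding site.

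Ets factors are DNA-binding proteins, several of which ERK induces or phosphorylates, and the lowest and the highest gene groups both held members of this family. The 3 members of the Pea3 group were all at least 2-fold lower. Etv4 was at 158 in untreated mESC, 262 with CHIR and 26.5 with CHIR and PD, a difference of -3.30. The EpiLC arrays read 211, 226 and 23.6, again low only with PD. Etv5, which mESC also use in self-renewal, had a mean difference of -1.46 over a pair of probes, of which the brighter was at 893 and 141 (-2.66) and the dimmer at 235 and 197 (-0.26). Etv1 was at 234 with CHIR and 90.0 with PD added (-1.38), and both of its probes were at least 2-fold lower. Elk3, a ternary complex factor that ERK phosphorylates, was at -1.13. Spic, a relative of PU.1 known from red pulp macrophages, was at 785 in untreated mESC, 91.5 with CHIR and 1638 with CHIR and PD, a difference of 4.16. So Spic was lowest with CHIR alone, and above the untreated value once PD was added. Elf3, an epithelial Ets factor, was at 265 and 669.9 (1.34). Of the 15 members 4 were at least 2-fold lower and 2 at least 2-fold higher, with a median of 0.01.

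Immediate early genes are switched on within minutes of growth factor signals, and after 24 h the list lay level: the median of 20 measured members was 0.05, with 2 at least 2-fold lower and 0 higher. Egr1, a zinc finger factor induced by ERK through serum response elements, was at 109, 87.6 and 25.7 in mESC (-1.77). Myc, a growth regulator whose protein ERK stabilises, was at 709.9 in untreated cells, 439 with CHIR and 169.9 with CHIR and PD (-1.37). Phlda1 was at -0.88. Jun, an AP-1 subunit, was on the other side at 0.75, as was the stress factor Atf3 at 0.62, and Fos itself was at -0.29.

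The upstream parts of the cascade showed smaller differences. Of 19 measured ligands, receptors and kinases, 12 were higher and 7 lower, with a median of 0.06, and 1 passed 2-fold. That was Fgfr2, an FGF receptor, which was at 78.3 with CHIR and 177 with PD added (1.18), and at 1.39 in EpiLC. Fgf4, the autocrine ligand, was at 909.5 and 1482 (0.70), while Fgf5, a ligand that marks the primed epiblast, was at -0.83 and Fgf8 at -0.66. Both were under the median of each array, Fgf5 at 35.6 and 19.9 and Fgf8 at 41.3 and 26.1. Their size depends on the floor: with the floor set to 4 they were at -1.57 and -1.06. The transcripts of the drug targets differed little: Map2k1 (MEK1) was at 408 and 473 (0.21), and Map2k2 (MEK2) at 736 and 702 (-0.07). Gsk3b, a target of CHIR, was at 599, 645 and 947 (0.55). Gsk3a was not analysed here.

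Bmp4, a ligand of the TGF-beta family that mESC both make and are given in this medium, was at 1107 in untreated mESC, 1670.2 with CHIR and 200.2 with CHIR and PD. The difference of -3.06 made it the fifth lowest gene. In EpiLC it was at 146, 206 and 285, a difference of 0.47, and over both states limma gave -1.30 (SE 0.85, adjusted p = 0.86). Id1 and Id3, inhibitors of basic helix-loop-helix factors and standard readouts of BMP signalling, were lower too, Id1 at 989 with CHIR and 399 with PD added (-1.31) and Id3 at 425 and 192 (-1.15). Id2 was at -0.30 and Id4 at 0.59, and Bmp2 at -0.62. Of 20 measured members of the BMP list, 14 were lower and 6 higher, 3 at least 2-fold lower, and the median was -0.06. The Activin and Nodal list, another branch of the same family, had a median of 0.01 over 15 members and none at 2-fold. Its lowest member was the Activin antagonist Fst at -0.97, and its highest were Smad3 at 0.55 and Nodal at 0.50. The LIF-STAT3 list, the branch fed by the LIF of the medium, had a median of 0.04 over 13 members, all within 2-fold, with Lif at 0.51 and its receptor chain Il6st at 0.47.

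The core pluripotency list had a median of -0.14 over 15 members, 10 of them lower and 5 higher. Utf1, a chromatin-bound factor of mESC and early epiblast, was at 3089 in untreated mESC, 2021 with CHIR and 287 with CHIR and PD (-2.81). In EpiLC it was at 3091, 473 and 91.7, so in each state it was highest untreated and lowest with PD. Dppa4, a chromatin protein of pluripotent cells, was at 539.8 and 260.2 (-1.05), its partner Dppa2 at -0.78, L1td1 at -0.71 and the RNA-binding protein Lin28a at -0.61. The difference of Nanog was 0.45 here against 2.33 in EpiLC, with Sox2 at 0.12 and Pou5f1 at -0.14.

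The naive list had a median of 0.17 over 16 members, 12 of them higher and 4 lower, and none reached 2-fold. Prdm14, which opposes FGF signalling and DNA methylation in mESC, was at 120.2, 125 and 238 (0.93). Jam2, an adhesion molecule, was at 0.86, Dppa3 (Stella), a maternal factor that protects methylation imprints, at 0.85, and Klf4 at 0.50. Tfcp2l1, a naive factor downstream of LIF, was at 1213 and 1884 (0.63). Gbx2, a homeobox factor in this list, was lower at -0.70.

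The formative epiblast list had a median of -0.51, 10 of 12 members lower and 2 at least 2-fold lower. Lef1, the beta-catenin partner that activates Wnt targets, was at 435 in untreated mESC, 627 with CHIR and 159 with CHIR and PD (-1.98). Wnt8a, a Wnt ligand of the early streak, was at 138 and 45.3 (-1.61). Dnmt3b, a de novo DNA methyltransferase, was at 1289 and 817 (-0.66). In EpiLC the list's median was -0.12, with 4 members at least 2-fold lower.

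Dnmt3l, the catalytically inactive cofactor of the de novo methyltransferases, stood out among the DNA methylation genes. It was at 875 in untreated mESC, 484 with CHIR and 119 with CHIR and PD, a difference of -2.02. In EpiLC it was already low, at 131, 36.7 and 42.5. Dnmt3a was at -0.44 and the demethylating enzyme Tet2 at 0.48, and the 9 measured genes of this list had a median of -0.21. Of 13 germline genes that DNA methylation keeps silent, 9 were lower and 4 higher, none at 2-fold, with a median of -0.22. Only 6 of the 13 were at or above the array median with CHIR and 5 with PD added. The floor therefore limits what this list can show. Its lowest value was at Piwil2 (-0.71), which was under the median of both arrays, at 57.9 and 35.3.

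Genes of the primitive streak, where mesoderm and endoderm first form, are known Wnt targets, and several of them were high with CHIR alone and near the untreated intensity with PD added. Mixl1, a homeobox factor of the streak, was at 33.0 in untreated mESC, 321 with CHIR and 33.6 with CHIR and PD (-3.26). In EpiLC it was at 179, 3378 and 172 (-4.30), again high with CHIR alone and close to the untreated value with PD added. Cdx2, a caudal factor of trophoblast and posterior mesoderm, was at 111, 273 and 111 in mESC (-1.30). Hoxb1, an anterior Hox gene, was at 27.2, 87.7 and 31.8 (-1.46). Cdx1, a direct beta-catenin target, kept part of its higher intensity, at 28.6, 258 and 111 (-1.22). Of 18 measured members 12 were lower and 6 higher, 4 at least 2-fold lower, and the median was -0.32. In EpiLC the median was -0.93 and 9 were at least 2-fold lower. The list was dimmer in mESC, where 10 of the 18 were at or above the array median with CHIR and 7 with PD added. In EpiLC these were 16 and 12, so the 2 list medians do not rest on equally bright genes.

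Wnt targets outside the streak varied. Axin2, the most general feedback gene of the pathway, was at 182, 368 and 319 in mESC (-0.21), and Sp5, another direct target, was at -0.11. Nkd1, an inhibitor of Dishevelled, was at -0.72, whereas the antagonist Dkk1 was at 0.80 and Ascl2 at 0.69. The Wnt list had a median of -0.15 over 14 members, 2 of them at least 2-fold lower, namely Lef1 and Cdx1.

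Simple keratins and trophoblast genes formed the list with the highest median, 0.85 over 14 members, of which 13 were higher, 5 at least 2-fold. Krt8 and Krt18 pair into the first intermediate filaments of the embryo. Krt8 was at 778, 928 and 1872 in mESC (1.01), and Krt18 at 519, 655 and 1369 (1.06). Gata2, a trophoblast and blood factor, was at 1078 and 2239 (1.05). Plac1 at 1.05 and Esx1 at 1.01 are placental genes, and Hand1, a factor of trophoblast giant cells, was at 0.86. The exception was Cdx2, lower as given above, although it is the defining trophoblast factor of the list. The summed intensity of the list was 3734 in untreated mESC, 4254 with CHIR and 7700 with CHIR and PD, and 12 and then 14 of its 14 members were at or above the array median with CHIR and with PD added. In EpiLC the sums were 1419, 2852 and 4767, with a list median of 0.24. Whether cells of another type had a part in these values was not tested, and limma gave Krt18 1.08 over both states (SE 0.18, adjusted p = 0.522).

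**Figure D3:**
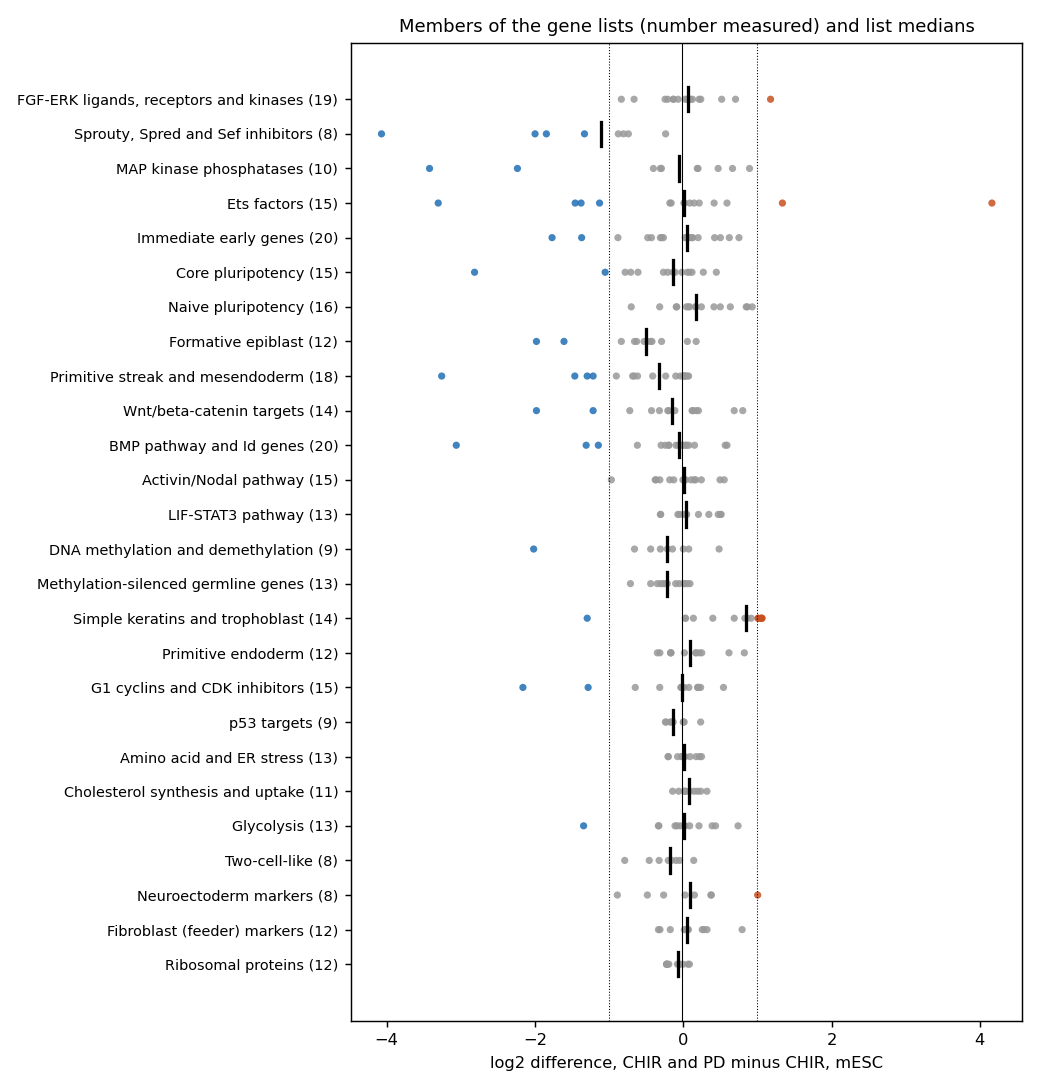
Difference in mESC (log2, CHIR with PD minus CHIR) of each measured member of the 26 gene lists, one point per gene, with the list median as a bar, the number measured in brackets and dotted lines at 2-fold. Medians run from -1.10 (Sprouty, Spred and Sef) to 0.85 (keratins and trophoblast), and most lists are centred near the all-gene median of -0.01.

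Cell cycle and metabolic lists had members apart from a list that was otherwise level. Ccnd2, a D-type cyclin that growth factors induce, was at 157 in untreated mESC, 214 with CHIR and 47.8 with CHIR and PD (-2.16). In EpiLC it was at 992 with CHIR and 969 with PD added (-0.03). Its kinase partner Cdk6 was at -1.28, Ccnd1 at -0.65 and the inhibitor Cdkn1b (p27) at 0.54, and the 15 members had a median of -0.01. Pdk1, a kinase that inhibits pyruvate dehydrogenase, was at -1.34 with probes at -1.94 and -0.75. Hk1, which starts glycolysis, was at 0.74, and the median of 13 glycolysis genes was 0.02. Amino acid and endoplasmic reticulum stress genes all lay between -0.21 and 0.25, cholesterol genes between -0.14 and 0.32, and ribosomal protein genes between -0.23 and 0.08.

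Beside the keratin and trophoblast list, markers of 4 other cell states were measured, and their list medians lay between -0.18 and 0.09 while single members differed more. Primitive endoderm had a median of 0.09 over 12 markers, with its highest value at the laminin gene Lama1 (0.82) and Gata6, a defining factor, at -0.32. Neuroectoderm had 0.09 over 8, with the neuronal tubulin Tubb3 at 1.00 and Sox11 at -0.89. Fibroblast markers had 0.05 over 12, with the smooth muscle actin gene Acta2 highest at 0.79. Genes of the 2-cell-like state had a median of -0.18, 7 of 8 lower, with Tcstv3 lowest at -0.79. Most of them were dim: 3 of the 8 were at or above the array median on each of the 2 arrays, and Tcstv3 was at 36.5 and 21.1. The 9 measured p53 targets had a median of -0.14 and none reached 2-fold.

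The remaining genes of the 20 lowest belong to no list. Alox15, a lipoxygenase, was at 290.3 in untreated mESC, 368 with CHIR and 44.3 with CHIR and PD (-3.05). Enpp3, an ecto-enzyme that cleaves nucleotides, was at 1242, 458 and 87.6 (-2.39), so it was highest in untreated cells. Nt5e, which makes adenosine outside the cell, was at 119, 247 and 52.9 (-2.23). The amino acid transporter Slc7a7 was at 782 and 157 (-2.32), and the zinc transporter Slc39a14 at 322 and 65.02 (-2.31). Enox1, an electron transfer protein, was at 1099.8 and 230.2 (-2.26). Gja1, a gap junction connexin, was at 1171 and 308 (-1.93). Mymx, a membrane peptide of muscle cell fusion, was at 888 and 212 (-2.07), and Tmem59l was at 121 and 27.2 (-2.15). Alox15, Nt5e and Tmem59l were also at least 2-fold lower in EpiLC (-2.27, -2.60 and -2.18), while Enox1, Gja1 and Mymx were not (-0.01, 0.09 and 0.28).

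Beside Spic, 2 genes were at least 8-fold higher. Calcoco2, an autophagy receptor, was at 363 in untreated mESC, 164 with CHIR and 1412 with CHIR and PD (3.11). S100a13, a small calcium-binding protein that takes part in FGF1 export, was at 56.2, 87.5 and 734 (3.07). In EpiLC none of the 3 was 2-fold different, at -0.46, -0.01 and 0.34, but all 3 were dim there. Calcoco2 was under the array median on every EpiLC array. Spic was at 72.4 in untreated EpiLC, 77.1 with CHIR and 55.9 with CHIR and PD, and S100a13 at 41.7, 52.6 and 66.7. The medians of these arrays were 63.5, 60.8 and 60.5. Mobp, named for myelin, was at 291 and 1161 in mESC (2.00). Hesx1, a homeobox repressor of the anterior embryo, was at 106, 63.4 and 240.0 (1.92). Gadd45b, a stress-inducible growth arrest gene, was at 252 and 746 (1.57), and at 2.51 in EpiLC. Tagln, an actin-binding protein of smooth muscle, was at 154 and 408 (1.41), and at 2.23 in EpiLC. S100a1, a neighbour of S100a13 in family, was at 1.63. The remaining genes of the 20 highest were Pga5, Lrrc15, Rasgef1a, Rnf213, Serping1, Xaf1, Dio3, Itpka, Cryab, Sprr1a and Slc15a1, with differences between 1.21 and 1.77.

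**Figure D4:**
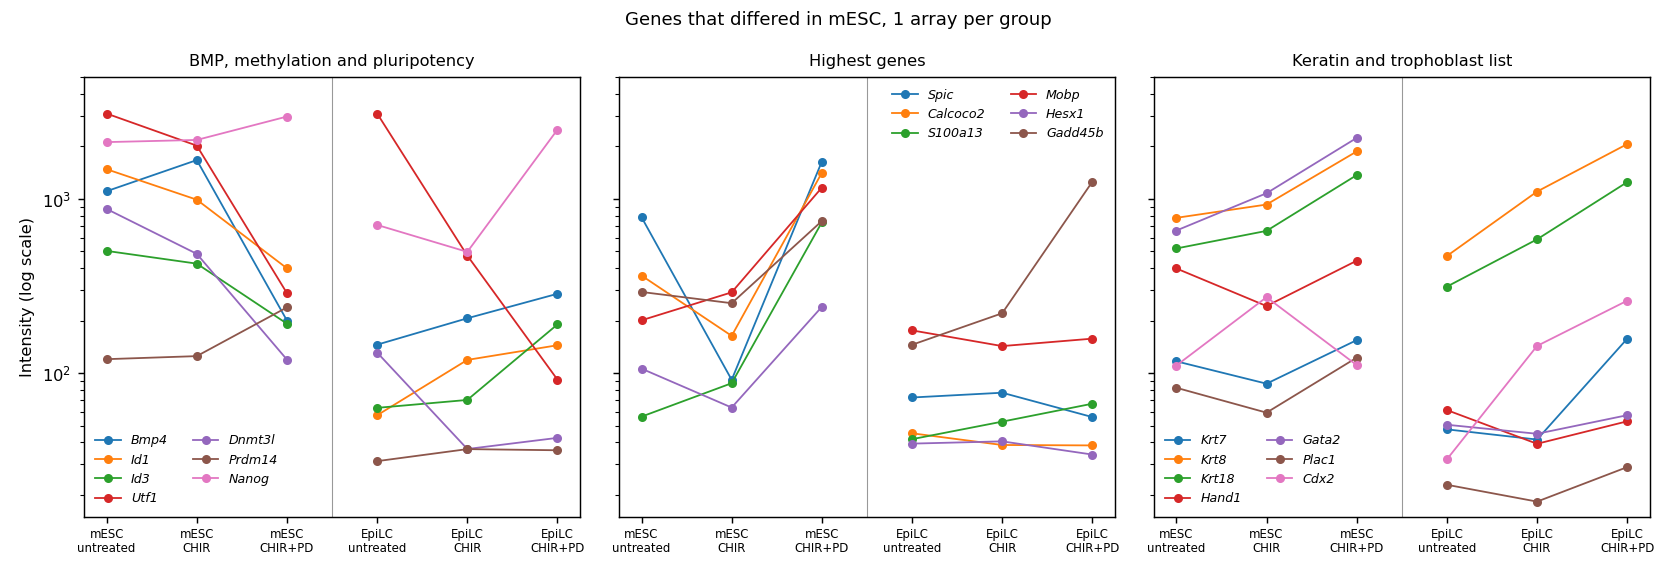
Intensity (log scale) on the 6 arrays of genes of BMP signalling, DNA methylation and pluripotency, of genes with the highest differences, and of keratin and trophoblast genes, one line per gene and cell state. In mESC Bmp4 stands at 200.2 with PD against 1670.2 with CHIR alone and Spic at 1638 against 91.5 with CHIR alone, while in EpiLC neither differs by 2-fold.

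The EpiLC arrays measured the same addition again without sharing an array with the mESC comparison. Of the 116 genes lower in mESC, 34 were at least 2-fold lower in EpiLC as well, 29.3% of the mESC genes and 15.1% of the 225 EpiLC genes. The share over all genes was 1.01%. At any size 81 of the 116 were lower in EpiLC and 35 higher, and 52 lay within 1.5-fold there. Their median in EpiLC was -0.51, against -0.02 over all genes. Of the 56 higher genes, 10 were at least 2-fold higher in EpiLC, 17.9% of the mESC genes and 4.35% of the 230 EpiLC genes. Here the share over all genes was 1.04%, and the median of the 56 in EpiLC was 0.17. Dimmer than the array median on both EpiLC arrays were 13 of the 116 and 21 of the 56, and no share over all genes was counted. Over all 22180 genes the differences in the 2 states had a Pearson r of 0.21, across genes, which are not independent. The genes that passed limma's test, a fit that favours like differences in both states, were Spry4 at -4.07 in mESC and -3.92 in EpiLC, Dusp4 at -3.42 and -3.20, Etv4 at -3.30 and -3.26, and Dusp6 at -2.24 and -2.49. Spred3 (-1.85 and -2.93), Spry2 (-1.33 and -2.70), Etv1 (-1.38 and -2.70) and Egr1 (-1.77 and -3.10) had differences farther below 0 in EpiLC than in mESC. Whether any effect differed between the states could not be tested with 1 array each.

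**Figure D5:**
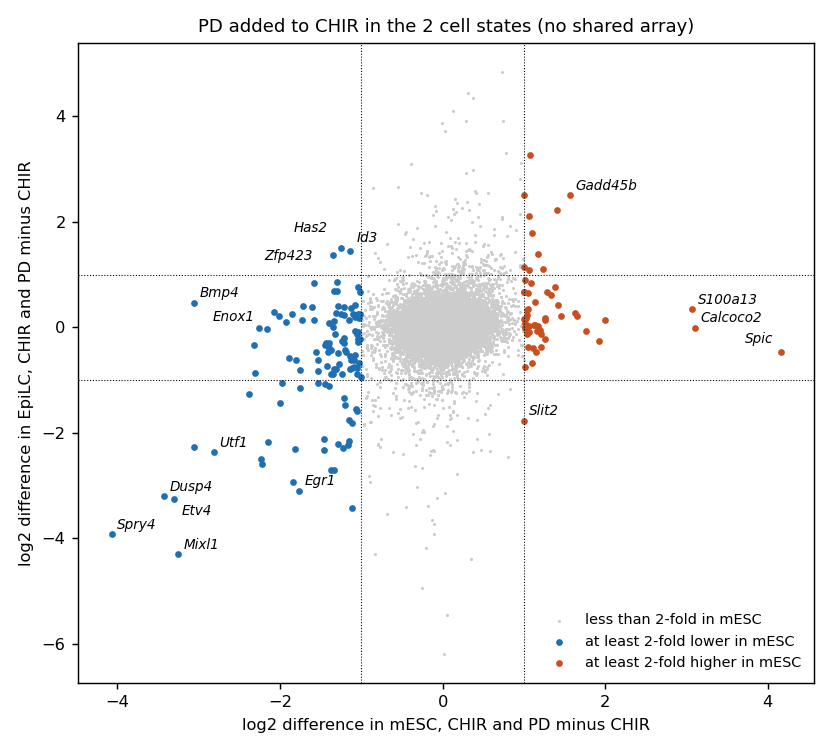
Difference (log2, CHIR with PD minus CHIR) of each gene in mESC (horizontal) and in EpiLC (vertical), with dotted lines at 2-fold and the genes at least 2-fold lower or higher in mESC coloured. Spry4, Dusp4, Etv4 and Mixl1 lie low in both states, Bmp4 is low and Spic high in mESC only, and Has2, Id3, Zfp423 and Slit2 lie past 2-fold in opposite directions.

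A miRNA cluster on chromosome X, miR-106a-363, was examined after its values had been seen, because 3 of its 6 members were at least 2-fold lower. The cluster is a relative of miR-17-92, a cluster known for promoting proliferation. Its mature arms are shown, from RefSeq, 5′ to 3′, with the seed (bases 2 to 8) in capitals, since the seed sets which targets a miRNA pairs with.
miR-106a-5p: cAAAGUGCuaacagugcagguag
miR-20b-5p: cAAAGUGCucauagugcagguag
miR-18b-5p: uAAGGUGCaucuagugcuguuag
miR-19b-3p: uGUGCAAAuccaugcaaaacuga
miR-92a-3p: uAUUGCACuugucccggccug
miR-363-3p: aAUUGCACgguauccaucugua
The arms of miR-106a and miR-20b share the seed AAAGUGC, miR-92a and miR-363 share AUUGCAC, and miR-18b and miR-19b have seeds of their own. The hairpins lie on the minus strand of GRCm38.p6 between chrX:52741693-52741767 (Mir363) and chrX:52742503-52742567 (Mir106a). The array probes measure RNA that holds the hairpin, not the mature arm. In mESC Mir18b was at 159, 151 and 55.2 in untreated cells, with CHIR and with CHIR and PD (-1.45). Mir106a, whose probe is also listed for Kis2, was at 124, 102 and 40.7 (-1.33), and Mir363 at 115, 95.5 and 45.3 (-1.08). The other members were dim on both arrays, and Mir19b-2 was at -0.81, Mir20b at -0.53 and Mir92-2 at -0.36. So the 6 members were all lower in mESC, with a median of -0.94, and all 6 were lower in EpiLC too, from -0.16 to -1.08. The 6 hairpins are close neighbours on the same strand, so their probes are not 6 independent measures. Whether they read the same transcript was not tested. Over all 484 miRNA genes with a probe of their own the median was -0.04, with 3 at least 2-fold lower (Mir18b, Mir363 and Mir713) and 1 higher (Mir467d). In the related cluster on another chromosome Mir17 was at -0.53, Mir19a at -0.27 and Mir20a at -0.27.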

How the data were processed

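RNA was measured on 6 Mouse Gene 2.0 ST arrays (Affymetrix), 1 per group. The authors deposited linear intensities made with GeneSpring GX 11.5, per the series' design text. Their summarisation, normalization and any build are not given in the sources used here. Of 33793 probes, 23521 had 1 gene symbol and were used, 1814 had several and 8458 none. Symbols came from the platform annotation, updated by Entrez identifier, of which 23328 matched and 0 symbols moved. Intensities were taken to log2 and averaged per symbol (1082 of 22180 genes had several probes), and an intensity printed for such a gene is their geometric mean. Arrays were read with pandas 2.3.3 in Python 3.11.15, and limma 3.58.1 in R 4.3.3 fitted cell state plus treatment over 6 arrays. The fit was also run on simulated data with equal effects in both states. Those data cannot show how it behaves where the effects differ between the states.

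Named genes were the 20 lowest and 20 highest, up to 6 members per list with the largest absolute difference, every gene past limma's threshold, the markers Spry4, Dusp4, Utf1, Bmp4 and Spic, and the drug targets. Pou5f1, Sox2, Zfp42, Esrrb, Tbx3, smaller members of the feedback and other lists, genes just outside limma's threshold and the miRNA genes were added after their values were seen. The 26 lists held 359 genes, of which 331 were measured, and members and lists were chosen with earlier results of these data known. Alternatives were another constant, quantile normalization, the brightest probe, a filter on dim genes and other settings of limma.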

Additional observations from a re-analysis of the deposited data

Results flagged for a closer look

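A group of genes passed 2-fold in mESC and in EpiLC in opposite directions when PD was added, on 1 array a side, and the difference between the states was not tested. Has2, a hyaluronan synthase, was at -1.25 in mESC and 1.497 in EpiLC. Id3, a readout of BMP signalling, was at -1.15 in mESC and 1.44 in EpiLC. Zfp423, a zinc finger partner of BMP-activated Smads, was at -1.35 in mESC and 1.38 in EpiLC. Slit2, a guidance ligand of Robo receptors, was at 1.00 in mESC and -1.77 in EpiLC.

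Some probes outside the gene comparison also differed by at least 2-fold in mESC. Among 1814 probes listed for several genes these were 22 (1.21%), 13 higher and 9 lower. The lowest, at -1.71, is shared by Sprr2a1, Sprr2a2, Sprr2a3 and Sprr2b and was at 680.0 in untreated mESC, 2939 with CHIR and 901 with CHIR and PD. A probe shared by Ccdc85b and the AP-1 gene Fosl1 was at 81.8, 129 and 44.3 (-1.54). Among 8458 probes with no listed gene 47 (0.556%) differed, 23 higher and 24 lower, between -3.03 and 1.85.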

How the results depend on the processing

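Of 156 alternative list medians, 0 differed from the reported median by a factor of 1.5 or more. Of 1058 alternative values of the 179 genes named by the rule, 22 did. A turn of direction was counted only for values at least 2-fold as reported, and 0 of those turned. Smaller differences and medians were not checked for direction. The count of lower genes in mESC was 262 with the floor of 16 set to 4 and 51 with it set to 64, and that of higher genes 163 and 22. With the same floors 57 and 15 genes were lower, and 25 and 3 higher, in both states (34 and 10 as reported). Genes that limma called lower were 7 with trended and robust moderation, 1 with the floor of 64 and 0 without moderation (1231 at an unadjusted p under 0.05), for which the cause was not tested. They were 3 with only the 4 arrays that had CHIR, 3 with the floor of 4 (2 of them among the reported 4), 4 without dim genes and 5 with quantile normalization. Lower genes made up 67.4% of the 2-fold genes as reported, and between 61.6% and 69.9% under the alternatives. With the floor of 64 Spry4 was at -2.96 and Egr1 at -0.88. With the brightest probe Dusp6 was at -4.11, Etv5 at -2.66 and Pdk1 at -1.94. No paired analysis was possible because the labels give no replicate numbers, apart from the comparison within cell state that limma's fit already makes, and with 1 array per group no replicate could be left out. The floor limits what dim genes can show, and no depth applies to arrays.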
